A study of Mus musculus with 12 samples.

Results

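The Slc25 genes encode the mitochondrial carrier family, and they were described here in poly(A) RNA of the tibialis anterior, a fast muscle of the lower leg. Members were the rows of the deposited gene table named Slc25a followed by a number, with FPKM (fragments scaled to gene length and library size) of 1 or more in at least 4 of the 12 libraries. The table of 30239 genes held 47 such rows, and 35 of them met the rule. The other 12 (Slc25a2, Slc25a13, Slc25a14, Slc25a18, Slc25a21, Slc25a31, Slc25a40, Slc25a41, Slc25a43, Slc25a48, Slc25a53 and Slc25a54) did not and were left out of every test. The genotypes were DMD-Null, mdx and WT, with 4 libraries each from untreated mice aged 6 months. The name DMD-Null refers to loss of dystrophin, but the sources used here do not state how its gene was disrupted. The mdx mouse, the standard model of Duchenne muscular dystrophy, carries a nonsense mutation in the same gene. The sources used here do not state strain, sex or animals per library, and the labels merely number the replicates, so each p-value reflects variation among these 12 libraries.

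Libraries held 60693078 to 68054627 counts. Dmd, the targeted gene, had 71 to 164 counts in DMD-Null, 713 to 1254 in mdx and 412 to 3597 in WT. WT 1 and WT 3 stood apart from the other libraries. Their TMM factors, which scale each library for its composition, were 0.694 and 0.698, against 0.952 to 1.18 elsewhere. GC-rich genes took a larger share of their reads, with a Spearman correlation across genes between GC content and relative level of 0.655 and 0.604. That correlation was 0.449 in DMD-Null 4 and between -0.579 and -0.0935 in the other 9 libraries. The main results below are therefore also given without WT 1 and WT 3, although no batch is named in the labels. In bulk muscle, fewer cells of a type and less RNA per cell cannot be told apart.

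Mitochondrial carriers are small proteins, most of them in the inner mitochondrial membrane, where each moves a nucleotide, a metabolite, a cofactor or an ion between the cytosol and the matrix. They are made in the cytosol without a cleaved presequence in most cases, pass the outer membrane with the help of the TOM complex and enter the inner membrane through the TIM22 complex. In skeletal muscle they are known above all for exporting ATP in exchange for ADP, importing phosphate and fatty acyl groups, and moving reducing equivalents from glycolysis into the matrix.

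A few members supplied most of the family's RNA. On the FPKM scale, which allows genes of different length to be compared, Slc25a4 averaged 1199 ± 59.2 in DMD-Null, 1292 ± 41.3 in mdx and 1326 ± 258 in WT (SD, n = 4 each). Slc25a4 is the ADP/ATP carrier typical of heart and skeletal muscle. Next came the phosphate carrier Slc25a3, at 172 ± 9.02, 170 ± 8.53 and 192 ± 15.2 FPKM in DMD-Null, mdx and WT, and the oxoglutarate/malate carrier Slc25a11, at 126 ± 9.61, 126 ± 11.6 and 132 ± 11.8 FPKM in the same order (SD, n = 4 each). The aspartate/glutamate carrier Slc25a12 stood at 65.1 ± 2.17 FPKM in DMD-Null, 62.4 ± 5.58 in mdx and 59.4 ± 11.2 in WT (SD, n = 4 each). These 4 genes together held 88.5 ± 0.609% of the summed FPKM of all 47 Slc25a rows in DMD-Null, 89.1 ± 0.266% in mdx and 89.5 ± 1.26% in WT (SD, n = 4 each).

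Slc25a4 alone held 67.9 ± 1.08% of that sum in DMD-Null, 69.8 ± 1.08% in mdx and 69.2 ± 3.56% in WT (SD, n = 4 each). By mean FPKM over all libraries, 3 members were at 100 or more, 5 lay between 10 and 100, 8 between 5 and 10, and 19 under 5. At the lower margin of the rule, Slc25a30 and Slc25a45 had a fourth-highest FPKM of 1.5 and 1.68, and Slc25a14 fell outside with 0.889. The spread within a genotype was widest in WT, where the median coefficient of variation of scaled counts over the 35 members was 31.7%, against 13.8% in DMD-Null and 8.64% in mdx.

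**Figure D1:**
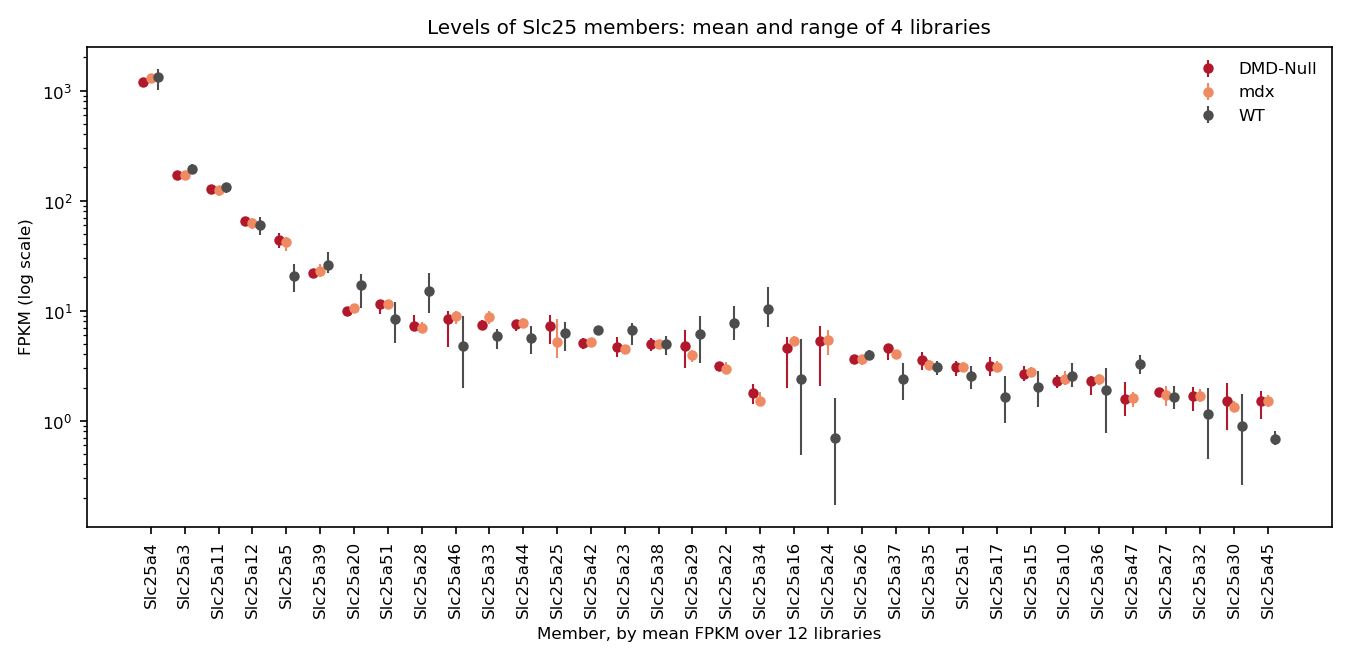
FPKM (log scale) of the members named in the text in DMD-Null, mdx and WT, ordered by mean FPKM over 12 libraries. Points are means of 4 libraries and bars run from the lowest to the highest library. Slc25a4 has the highest mean in each genotype, at 1199 to 1326 FPKM, and 19 members have a mean under 5 FPKM.

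Changes were tested with edgeR's quasi-likelihood test on the deposited counts over 11376 genes, with a Benjamini-Hochberg adjusted p of 0.05 as the threshold. In DMD-Null against WT, 3 of the 35 members rose (Slc25a5, Slc25a24 and Slc25a37), 13 fell and 19 did not pass. Over all tested genes, 12.9% rose and 15.6% fell. In mdx against WT, 2 members rose (Slc25a5 and Slc25a24), 15 fell and 18 did not pass, where 15.0% of all tested genes rose and 20.1% fell. Slc25a24, counted as a rise in both, met the FPKM rule through the mutant libraries, where it is higher. The median log2 fold change of the 35 members was -0.32 in DMD-Null and -0.42 in mdx, beside 0.01 and 0.00 for all tested genes. Both comparisons share the 4 WT libraries, so their values are given side by side and not as repeats of each other.

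Without WT 1 and WT 3, 3 members were higher and 12 lower in DMD-Null than in WT, where 12% of all tested genes were higher and 9.84% lower. In mdx the counts without these libraries were 3 higher and 13 lower, beside 12.4% and 10.9% of all tested genes. One library moved the number of rises by more than any other. Without WT 2, 6 members were higher and 18 lower in DMD-Null, beside 28.2% and 28.1% of all tested genes, and 5 were higher and 19 lower in mdx, beside 29.8% and 30.6%.

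Scaling mattered too. Library totals alone moved the median log2 fold change of all tested genes to 0.44 in DMD-Null and 0.42 in mdx, and the deposited FPKM moved it to 0.36 and 0.35, on the log2(FPKM + 1) scale. With limma on log2(FPKM + 1), 5 members were higher and 8 lower in DMD-Null, beside 43.6% and 4.97% of all tested genes. In mdx 9 were higher and 8 lower, beside 44.4% and 5.91%. The lower members in both included Slc25a20, Slc25a22, Slc25a23, Slc25a28, Slc25a34, Slc25a42 and Slc25a47. Changes below are relative to the bulk of genes, as TMM scaling sets it.

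**Figure D2:**
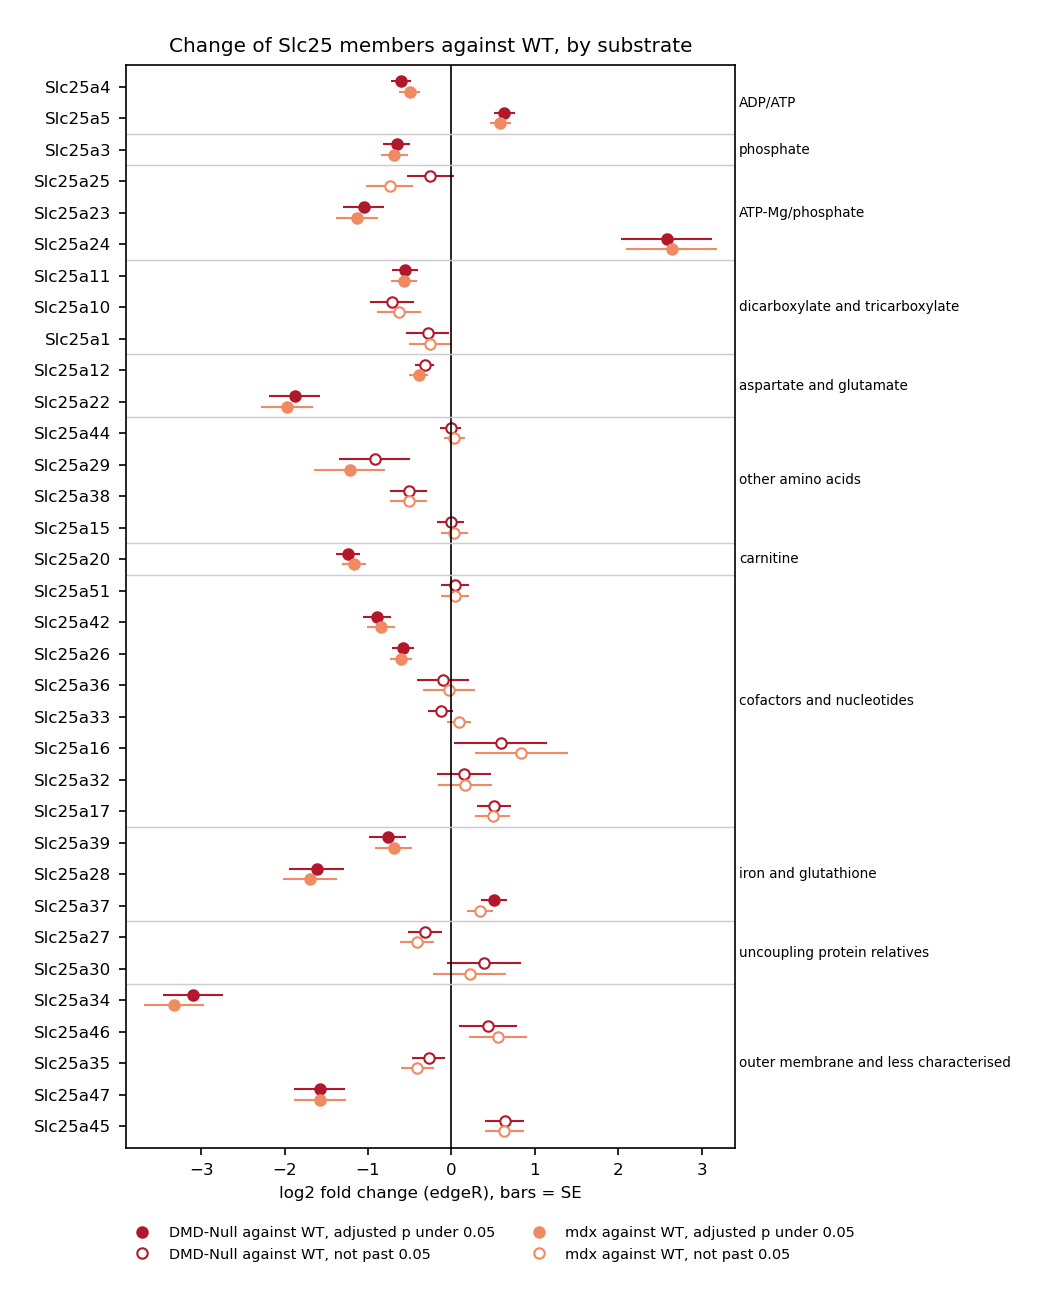
Log2 fold change against WT of the members named in the text, by substrate, from edgeR with TMM scaling; bars are SE, filled points have an adjusted p under 0.05. Slc25a34 lies farthest left, at -3.10 in DMD-Null and -3.33 in mdx, and Slc25a24 farthest right, at 2.58 in DMD-Null and 2.64 in mdx.

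The ADP/ATP carriers went in opposite directions. Slc25a4 had 3133, 2657, 2743 and 2868 scaled CPM (counts per 1000000 after TMM scaling) in DMD-Null 1 to 4. It had 3117, 3126, 3123 and 2907 in mdx 1 to 4, and 3937, 4447, 4755 and 4189 in WT 1 to 4. Every WT library lay above every mutant library on this scale. Slc25a4 fell in DMD-Null (log2 fold change -0.60, SE 0.12, edgeR adjusted p = 0.00526) and in mdx (-0.50, SE 0.12, edgeR adjusted p = 0.0120). The fall rested on the scaling: on the log2(FPKM + 1) scale the differences were -0.12 in DMD-Null and -0.02 in mdx and did not pass (limma adjusted p = 0.464 and 0.925).

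Slc25a5, the ADP/ATP carrier found in most tissues and in dividing cells, had 62.9, 73.7, 80.8 and 70.7 scaled CPM in DMD-Null 1 to 4. It had 69.5, 59.8, 75.9 and 73.8 in mdx 1 to 4, and 40.4, 52.1, 46.1 and 46.9 in WT 1 to 4. The mutant libraries all lay above the WT libraries. It rose in DMD-Null (log2 fold change 0.64, SE 0.13, edgeR adjusted p = 0.00474) and in mdx (0.59, SE 0.13, edgeR adjusted p = 0.00638). Both rises also passed without WT 1 and WT 3, at 0.51 in DMD-Null and 0.47 in mdx (edgeR adjusted p = 0.0170 and 0.0249), and on the FPKM scale, where they were larger (1.08 and 1.03).

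The share of Slc25a5 in the summed FPKM of the family, which does not depend on scaling between libraries, was 1.98% to 2.88% in DMD-Null, 1.95% to 2.50% in mdx and 0.921% to 1.22% in WT. Counts of the pseudogene Slc25a5-ps were 0 to 4 in all libraries. Macrophage markers (Cd68, Adgre1, C1qa, Csf1r, Lyz2 and Mrc1) moved with this rise. Of the 6, 5 rose in DMD-Null and all 6 in mdx, beside 12.9% and 15.0% of all tested genes. Adgre1 and Mrc1 were as low as 0.617 and 0.285 FPKM in WT, so they met the rule through the mutant libraries. The summed CPM of the 6 markers was 382 to 801 in DMD-Null, 633 to 845 in mdx and 80.5 to 139 in WT. Their part in the rise of Slc25a5 was not tested.

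Slc25a3, which imports the phosphate used in ATP synthesis, had 1005, 889, 885 and 1098 scaled CPM in DMD-Null 1 to 4. It had 984, 917, 980 and 925 in mdx 1 to 4, and 1667, 1215, 1957 and 1268 in WT 1 to 4. WT 1 and WT 3 were the highest, and the lowest WT library was still above all mutant libraries. It fell in DMD-Null (log2 fold change -0.66, SE 0.16, edgeR adjusted p = 0.0137) and in mdx (-0.68, SE 0.16, edgeR adjusted p = 0.0102). The fall was called without WT 1 and WT 3 (-0.39 and -0.41, edgeR adjusted p = 0.0332 and 0.0243), was larger with GC-corrected offsets (-1.27 and -1.37, edgeR adjusted p = 0.0122 and 0.00753), and lost its call on the log2(FPKM + 1) scale (-0.16 and -0.18, limma adjusted p = 0.197 and 0.145).

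The calcium-regulated ATP-Mg/phosphate carriers, which set the adenine nucleotide content of the matrix, differed in direction. Slc25a24 had 19.0, 23.5, 22.1 and 7.70 scaled CPM in DMD-Null 1 to 4. It had 19.0, 14.2, 19.2 and 22.9 in mdx 1 to 4, and 1.24, 6.61, 0.977 and 3.15 in WT 1 to 4. DMD-Null 4 was far below the other mutant libraries and WT 2 was the highest of WT, yet the groups did not overlap. On the FPKM scale it reached 1 in all 8 mutant libraries and in WT 2 alone of WT, so it met the rule through the groups where it is higher. It rose in DMD-Null (log2 fold change 2.58, SE 0.55, edgeR adjusted p = 0.00607) and in mdx (2.64, SE 0.55, edgeR adjusted p = 0.00490). Against WT 2 and WT 4 alone the rises were 1.86 and 1.93 (edgeR adjusted p = 0.0108 and 0.00891). Macrophage marker sums, given above for Slc25a5, were also higher in every mutant library than in any WT library, and their part in this rise was not tested.

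Slc25a23, another ATP-Mg/phosphate carrier, fell in DMD-Null (log2 fold change -1.05, SE 0.25, edgeR adjusted p = 0.0101) and in mdx (-1.13, SE 0.25, edgeR adjusted p = 0.00638). Its scaled CPM was 19.7 to 32.8 in DMD-Null, 22.5 to 24.8 in mdx and 30.7 to 68.1 in WT, so that DMD-Null 4 reached into the WT range. Against WT 2 and WT 4 alone the fall in DMD-Null was -0.55 and did not pass (edgeR adjusted p = 0.0573), while that in mdx did (-0.63, edgeR adjusted p = 0.0323). With DMD-Null 4 left out as well, both falls were called. Slc25a25, the remaining tested carrier of this kind, averaged 7.23 ± 1.75 FPKM in DMD-Null, 5.22 ± 2.14 in mdx and 6.28 ± 1.51 in WT (SD, n = 4 each). Its log2 fold changes of -0.25 in DMD-Null and -0.74 in mdx did not pass (edgeR adjusted p = 0.487 and 0.0592).

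The malate-aspartate shuttle, which brings cytosolic reducing equivalents into the matrix, uses Slc25a11 and Slc25a12. Slc25a11 had 303, 245, 239 and 297 scaled CPM in DMD-Null 1 to 4. It had 286, 240, 280 and 269 in mdx 1 to 4, and 409, 350, 502 and 330 in WT 1 to 4. All WT libraries were above the mutant libraries. It fell in DMD-Null (log2 fold change -0.56, SE 0.15, edgeR adjusted p = 0.0214) and in mdx (-0.56, SE 0.15, edgeR adjusted p = 0.0171). Neither call held without WT 1 and WT 3 (-0.36 and -0.37, edgeR adjusted p = 0.0597 and 0.0525) or on the log2(FPKM + 1) scale (-0.06 and -0.07, limma adjusted p = 0.639 and 0.609). The call in DMD-Null also ended when DMD-Null 2 or DMD-Null 3 was left out, with edgeR adjusted p up to 0.0702. Both calls held with GC-corrected offsets (-0.331 in DMD-Null and -0.304 in mdx, edgeR adjusted p = 0.038 and 0.047). They also held when WT 1, WT 3 and DMD-Null 4 were all left out (-0.395 and -0.347, edgeR adjusted p = 0.0272 and 0.0358).

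Slc25a12, the muscle and brain form of the aspartate/glutamate carrier, had 517, 436, 464 and 519 scaled CPM in DMD-Null 1 to 4. It had 515, 423, 445 and 464 in mdx 1 to 4, and 591, 618, 614 and 594 in WT 1 to 4. The WT libraries were close together and above the rest. Its change in DMD-Null did not pass (log2 fold change -0.32, SE 0.11, edgeR adjusted p = 0.0533), and it fell in mdx (-0.39, SE 0.11, edgeR adjusted p = 0.0236). With GC-corrected offsets the changes were -0.62 and -0.72, both called (edgeR adjusted p = 0.00861 and 0.00353). The direction turned in both mutants on the log2(FPKM + 1) scale (0.15 in DMD-Null and 0.085 in mdx, limma adjusted p = 0.359 and 0.607). The call in mdx ended without mdx 2, mdx 3 or mdx 4, with edgeR adjusted p up to 0.0655. The liver form of this carrier, Slc25a13, was under the rule. Of the 4 shuttle enzymes, Got2 and Mdh2 fell in both mutants and Got1 and Mdh1 did not pass. This turned with WT 1 and WT 3 left out, where neither Got2 nor Mdh2 passed, Got1 was called lower in both mutants (-0.44 in DMD-Null and -0.45 in mdx, edgeR adjusted p = 0.0371 and 0.0323) and Mdh1 in DMD-Null (-0.49, edgeR adjusted p = 0.0146). Got2, the mitochondrial aspartate aminotransferase, changed by -0.89 in DMD-Null and -1.06 in mdx on the log2 scale with all libraries (edgeR adjusted p = 0.0268 and 0.0120), and by -0.30 and -0.46 against WT 2 and WT 4 alone (edgeR adjusted p = 0.247 and 0.0724).

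Slc25a22, a mitochondrial glutamate carrier, had 18.3, 19.4, 19.5 and 18.9 scaled CPM in DMD-Null 1 to 4. It had 16.1, 21.4, 16.6 and 17.1 in mdx 1 to 4, and 90.9, 38.8, 110 and 39.8 in WT 1 to 4. WT 2 and WT 4 lay far below WT 1 and WT 3, and still above every mutant library. Slc25a22 fell 3.67-fold in DMD-Null (log2 fold change -1.88, SE 0.31, edgeR adjusted p = 0.00133) and 3.92-fold in mdx (-1.97, SE 0.31, edgeR adjusted p = 0.000895). WT 2 and WT 4 alone as controls gave falls of -1.08 and -1.17 (edgeR adjusted p = 0.000228 and 0.000145).

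The citrate carrier Slc25a1 and the dicarboxylate carrier Slc25a10 did not pass in either mutant. Slc25a1 averaged 3.04 ± 0.420 FPKM in DMD-Null, 3.09 ± 0.238 in mdx and 2.52 ± 0.652 in WT, and Slc25a10 averaged 2.27 ± 0.346, 2.42 ± 0.313 and 2.56 ± 0.628 FPKM in the same genotypes (SD, n = 4 each). Their edgeR log2 fold changes were -0.28 and -0.71 in DMD-Null (adjusted p = 0.395 and 0.0596) and -0.25 and -0.63 in mdx (adjusted p = 0.428 and 0.0777).

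Of the carriers of other amino acids, Slc25a15 (ornithine), Slc25a38 (glycine, needed for heme synthesis) and Slc25a44 (branched-chain amino acids) did not pass in either mutant. Their log2 fold changes in DMD-Null were -0.01, -0.51 and -0.01 (edgeR adjusted p = 0.964, 0.0992 and 0.964), and in mdx 0.04, -0.51 and 0.04 (edgeR adjusted p = 0.860, 0.0895 and 0.816). Slc25a29, which carries basic amino acids, fell in mdx (log2 fold change -1.22, SE 0.43, edgeR adjusted p = 0.0440) and did not pass in DMD-Null (-0.92, SE 0.42, edgeR adjusted p = 0.116). The fall in mdx rested on WT 1 and WT 3: without both it was -0.08 (edgeR adjusted p = 0.867). The call also ended on the log2(FPKM + 1) scale (-0.42, limma adjusted p = 0.228). Its FPKM averaged 4.80 ± 1.53 in DMD-Null, 3.93 ± 0.416 in mdx and 6.09 ± 3.06 in WT (SD, n = 4 each). Slc25a29 lies head to head with Slc25a47 on chromosome 12, with 162 bases between their deposited ends (the nearest RefSeq start of Slc25a47 lies 15083 bases from the deposited one), and both had more reads in WT 1 and WT 3 than in the other libraries.

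Slc25a20, the carnitine/acylcarnitine carrier that admits long-chain acyl groups for beta-oxidation, fell in both mutants. It had 49.4, 46.1, 49.0 and 51.1 scaled CPM in DMD-Null 1 to 4. It had 53.9, 51.1, 51.0 and 48.7 in mdx 1 to 4, and 85.4, 124, 139 and 111 in WT 1 to 4. The mutant libraries lay within a narrow band, and WT 1 was the lowest of WT. The fall was 2.35-fold in DMD-Null (log2 fold change -1.23, SE 0.14, edgeR adjusted p = 0.000152) and 2.25-fold in mdx (-1.17, SE 0.14, edgeR adjusted p = 0.000189). Against WT 2 and WT 4 alone it was -1.30 and -1.23 (edgeR adjusted p = 1.18e-05 and 2.45e-05). On the log2(FPKM + 1) scale the fall was smaller, at -0.684 in DMD-Null and -0.625 in mdx (limma adjusted p = 0.00792 and 0.0117). There WT 1, at 10.6 FPKM, lay inside the mdx range of 10.1 to 10.9.

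The enzymes that act beside Slc25a20 were a list of 4. In each mutant 3 of them fell, beside 15.6% of all tested genes in DMD-Null and 20.1% in mdx. Cpt1b, the muscle carnitine palmitoyltransferase of the outer membrane, changed by -1.09 in DMD-Null and -1.05 in mdx. Cpt2, which re-forms acyl-CoA in the matrix, changed by -1.34 and -1.45, and Crat, which acts on short acyl groups, by -1.20 and -1.31. Their edgeR adjusted p lay between 0.00117 and 0.00331, and the same 3 passed without WT 1 and WT 3. Cpt1a, the form typical of liver, did not pass (0.22 in DMD-Null and 0.18 in mdx).

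Among the 9 carriers of cofactors and nucleotides, Slc25a42 and Slc25a26 fell in both mutants, and 6 did not pass in either. Slc25a42, which imports coenzyme A, had 25.4 to 36.2 scaled CPM in DMD-Null, 29.6 to 34.0 in mdx and 45.1 to 70.6 in WT. It changed by -0.89 in DMD-Null (SE 0.17, edgeR adjusted p = 0.00336) and -0.85 in mdx (SE 0.17, edgeR adjusted p = 0.00399). Against WT 2 and WT 4 alone the changes were -0.61 and -0.57 (edgeR adjusted p = 0.00684 and 0.00996).

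Slc25a26, which imports S-adenosylmethionine, the methyl donor, changed by -0.58 in DMD-Null and -0.60 in mdx (edgeR adjusted p = 0.00834 and 0.00632). It lost its call on the log2(FPKM + 1) scale (-0.08 and -0.10, limma adjusted p = 0.472 and 0.394). Lrig1 overlaps Slc25a26 on the other strand with up to 4536 counts in a library, so reads could be shared between them if counting ignored strand, which the sources used here do not state. The 6 that did not pass were Slc25a16 and Slc25a17, both tied to coenzyme A, the second of them in peroxisomes, Slc25a32 (folate and FAD), Slc25a33 and Slc25a36 (pyrimidine nucleotides) and Slc25a51 (NAD+). Their edgeR log2 fold changes lay between -0.13 and 0.59 in DMD-Null and between -0.03 and 0.84 in mdx, with Slc25a16 the highest in each. Slc25a36 was called lower without WT 1 and WT 3 (-0.67 in DMD-Null and -0.59 in mdx, edgeR adjusted p = 0.00499 and 0.00935).

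Of the mitochondrial iron importers, the mitoferrins, Slc25a28 fell in both mutants. Slc25a28 (mitoferrin-2), the form of non-erythroid tissues, had 25.6, 25.3, 24.0 and 36.4 scaled CPM in DMD-Null 1 to 4. It had 25.9, 30.8, 24.4 and 24.2 in mdx 1 to 4, and 136, 42.9, 111 and 50.9 in WT 1 to 4. WT 1 and WT 3 were far above WT 2 and WT 4, which were in turn above every mutant library. Slc25a28 fell 3.06-fold in DMD-Null (log2 fold change -1.62, SE 0.33, edgeR adjusted p = 0.00483) and 3.24-fold in mdx (-1.69, SE 0.33, edgeR adjusted p = 0.00339). Against WT 2 and WT 4 alone the falls were -0.78 and -0.86 (edgeR adjusted p = 0.00888 and 0.00533).

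Slc25a37 (mitoferrin-1), the form that supplies heme synthesis in red cell precursors, had 30.9, 27.7, 28.5 and 22.8 scaled CPM in DMD-Null 1 to 4. It had 24.2, 24.3, 23.6 and 25.6 in mdx 1 to 4, and 16.6, 21.1, 15.4 and 24.1 in WT 1 to 4. DMD-Null 4 and mdx 3 lay below WT 4, so both mutants overlapped with WT. It rose in DMD-Null (log2 fold change 0.51, SE 0.16, edgeR adjusted p = 0.0321), and the change in mdx did not pass (0.34, SE 0.16, edgeR adjusted p = 0.104).

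Leaving out WT 1 and WT 3 ended the rise of Slc25a37 in DMD-Null (0.25, edgeR adjusted p = 0.195). It also ended when DMD-Null 1, DMD-Null 2, DMD-Null 3, WT 1 or WT 3 alone was left out, with edgeR adjusted p up to 0.106. The rise was called with GC-corrected offsets, and when WT 1, WT 3 and DMD-Null 4 were all left out. A fit to the DMD-Null and WT libraries only did not call it. Erythroid genes went the other way in DMD-Null. There all 5 tested of 6 listed (Hba-a1, Hba-a2, Hbb-bs, Hbb-bt and Alas2) fell, beside 15.6% of all tested genes. Without WT 1 and WT 3, 2 of the 5 (Hbb-bs and Hbb-bt) still fell, beside 9.84% of all tested genes. The summed CPM of the 6 erythroid genes was 194 to 339 in DMD-Null, 325 to 1351 in mdx and 589 to 775 in WT. Their part in the change of Slc25a37 was not tested.

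Slc25a39, which imports glutathione into mitochondria, had 64.2, 57.2, 56.0 and 67.7 scaled CPM in DMD-Null 1 to 4. It had 61.5, 69.1, 71.6 and 55.7 in mdx 1 to 4, and 113, 75.8, 155 and 72.8 in WT 1 to 4. WT 2 and WT 4 were just above the highest mutant libraries. It fell in DMD-Null (log2 fold change -0.76, SE 0.22, edgeR adjusted p = 0.0242) and in mdx (-0.69, SE 0.22, edgeR adjusted p = 0.0307). Neither call held without WT 1 and WT 3 (-0.31 and -0.23, edgeR adjusted p = 0.104 and 0.212) or on the log2(FPKM + 1) scale (-0.21 and -0.14, limma adjusted p = 0.211 and 0.391). Several single libraries ended them as well: DMD-Null 1, 2 or 3 or WT 3 in DMD-Null (edgeR adjusted p up to 0.0715), and any mdx library, WT 1 or WT 3 in mdx (up to 0.0858). With WT 1, WT 3 and DMD-Null 4 all left out, Slc25a39 was called lower in DMD-Null and not in mdx. GC-corrected offsets gave no call in either mutant.

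The relatives of the uncoupling proteins that met the rule, Slc25a27 and Slc25a30, did not pass in either mutant. Slc25a27 averaged 1.83 ± 0.0539 FPKM in DMD-Null, 1.71 ± 0.296 in mdx and 1.63 ± 0.337 in WT, and Slc25a30 averaged 1.51 ± 0.559, 1.33 ± 0.114 and 0.902 ± 0.728 FPKM in the same genotypes (SD, n = 4 each). Among carriers of the family that bear other names, Ucp3, the uncoupling protein of skeletal muscle, fell in DMD-Null (-1.42, edgeR adjusted p = 0.0105) and in mdx (-1.78, edgeR adjusted p = 0.00303). Ucp2, the form abundant in immune cells, changed by 0.88 in DMD-Null (edgeR adjusted p = 0.0587) and rose by 0.95 in mdx (edgeR adjusted p = 0.0391), and was called in both against WT 2 and WT 4 alone (1.64 and 1.71, edgeR adjusted p = 0.000931 and 0.000697). Mtch1 and Mtch2 of the outer membrane did not pass.

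Slc25a34, whose substrate is not firmly established, changed most of all members in both mutants. It had 5.70, 3.63, 3.79 and 6.22 scaled CPM in DMD-Null 1 to 4. It had 4.97, 3.77, 3.82 and 3.88 in mdx 1 to 4, and 44.9, 26.4, 71.5 and 22.6 in WT 1 to 4. The lowest WT library held more than 3 times the highest mutant library. It fell 8.55-fold in DMD-Null (log2 fold change -3.10, SE 0.36, edgeR adjusted p = 0.000143) and 10.1-fold in mdx (-3.33, SE 0.36, edgeR adjusted p = 8.84e-05). With WT 2 and WT 4 as the only controls the falls were -2.37 and -2.60 (edgeR adjusted p = 7.22e-05 and 4.43e-05). On the FPKM scale Slc25a34 averaged 1.77 ± 0.389 in DMD-Null, 1.52 ± 0.208 in mdx and 10.4 ± 4.08 in WT (SD, n = 4 each). Slc25a35, also of uncertain substrate, did not pass (-0.27 in DMD-Null and -0.41 in mdx, edgeR adjusted p = 0.281 and 0.113), and Rangrf overlaps Slc25a35 on the other strand with up to 2945 counts.

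Slc25a47, a carrier known mainly from liver, had 4.39, 4.49, 3.26 and 7.19 scaled CPM in DMD-Null 1 to 4. It had 4.55, 5.67, 3.96 and 5.20 in mdx 1 to 4, and 19.3, 9.48, 19.5 and 9.44 in WT 1 to 4. It fell 2.98-fold in both mutants, with log2 fold changes of -1.58 in DMD-Null and -1.57 in mdx (SE 0.31 each, edgeR adjusted p = 0.00389 and 0.00355). Set against WT 2 and WT 4 alone, the falls were -0.999 and -0.994 (edgeR adjusted p = 0.0208 and 0.0205). Of the liver genes, 5 of the 7 listed (Alb, Apoa1, Ttr, Fgb and Serpina1c) also fell in each mutant, and without WT 1 and WT 3 the number was 1 in DMD-Null and 3 in mdx. Of all tested genes, 15.6% fell in DMD-Null and 20.1% in mdx, and 9.84% and 10.9% without WT 1 and WT 3. The summed CPM of all 7 liver genes, which include Apoa2 and Apoc3, was 54.7 to 227 in DMD-Null, 100 to 181 in mdx and 581 to 652 in WT. Within a genotype these sums did not follow Slc25a47. They were 652, 601, 611 and 581 in WT 1 to 4, where Slc25a47 had 836, 545, 840 and 558 counts. In DMD-Null 1 and DMD-Null 2 they were 227 and 54.7, where Slc25a47 had 295 and 318 counts. The lowest DMD-Null values were 0.0498 FPKM for Alb and 0 for Apoa1 and Fgb. The part of the liver genes in the fall of Slc25a47 was not tested.

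Slc25a45 had FPKM of 1.52 ± 0.382 in DMD-Null, 1.52 ± 0.206 in mdx and 0.678 ± 0.0880 in WT (SD, n = 4 each). All 8 libraries in which it reached 1 FPKM were mutant libraries, so it met the rule through the groups where it is higher. Its log2 fold change of 0.64 in each mutant did not pass (edgeR adjusted p = 0.0597 in DMD-Null and 0.0522 in mdx). It was 0.998 in each and passed once WT 1 and WT 3 were left out (edgeR adjusted p = 0.0125 and 0.0119), and it also passed when WT 1 or DMD-Null 1 alone was left out, with limma and with DESeq2. Slc25a46, a protein of the outer membrane that acts in mitochondrial fission and fusion, did not pass (0.44 in DMD-Null and 0.56 in mdx, edgeR adjusted p = 0.330 and 0.212).

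**Figure D3:**
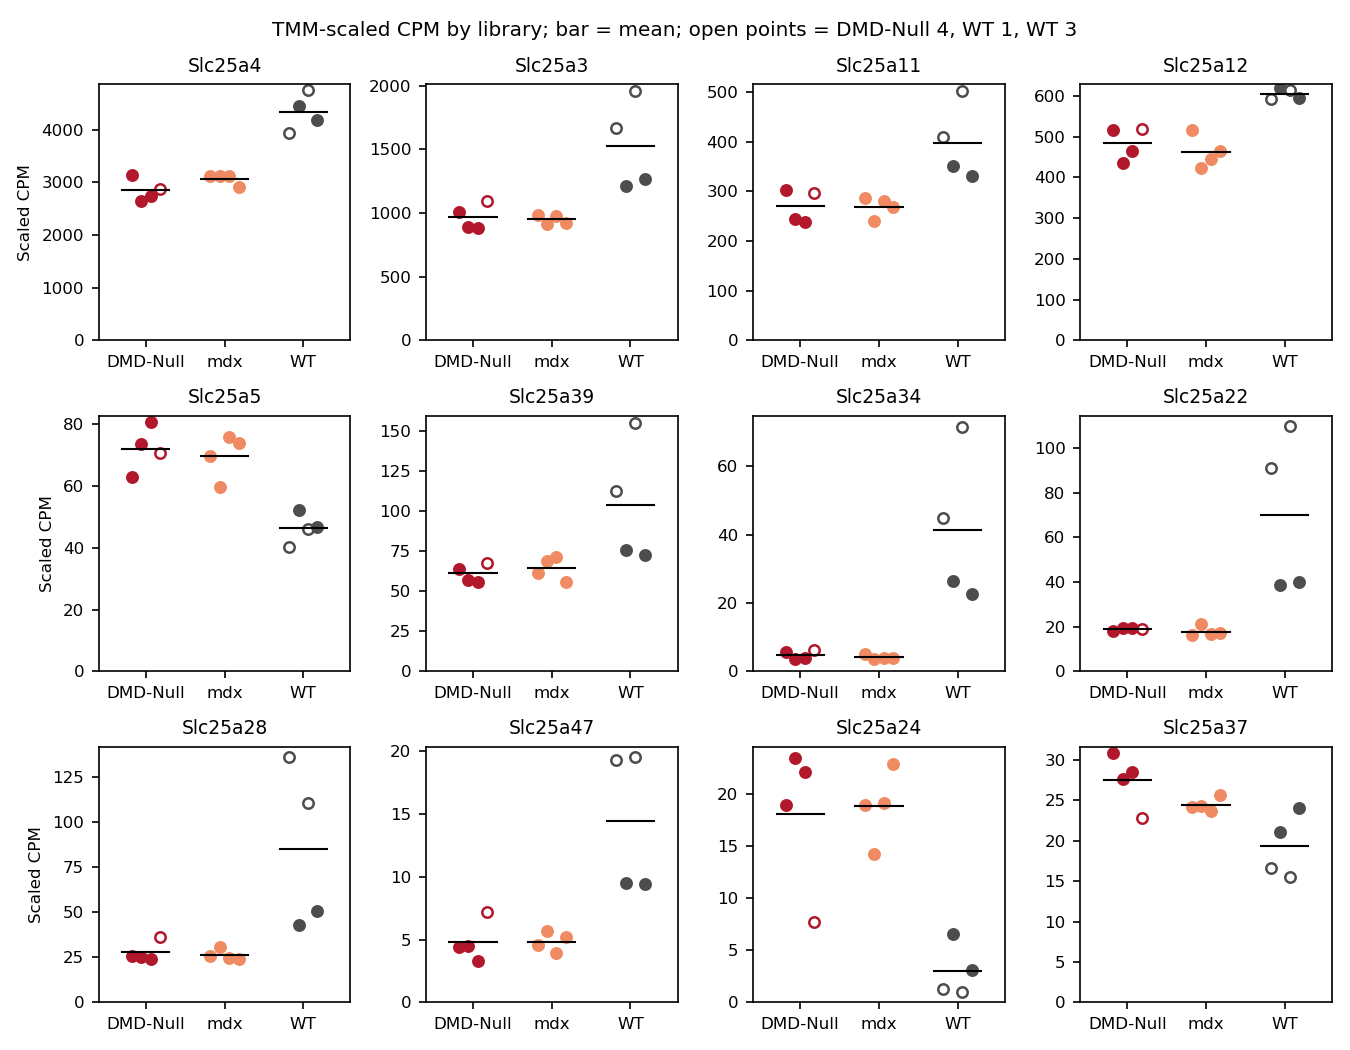
TMM-scaled CPM in each library for the 12 members given library by library under the rule for named genes, with axes from 0. Bars are means of 4 libraries, and DMD-Null 4, WT 1 and WT 3 are open points. For Slc25a34, Slc25a22, Slc25a28 and Slc25a47 all WT points lie above the mutant points, with WT 1 and WT 3 the highest, and for Slc25a5 and Slc25a24 all WT points lie below.

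DMD-Null and mdx muscle did not differ in any member past the threshold. No member was called in DMD-Null against mdx by edgeR, where 0.0176% of all tested genes passed, by DESeq2 (0.0527%) or by limma on log2(FPKM + 1) (0.0176%). At an unadjusted p under 0.05 edgeR gave 0 members, and 120 of all 11376 genes. Log2 fold changes lay between -0.25 (Slc25a16) and 0.49 (Slc25a25), with a median of 0.00, beside 0.01 for all tested genes. Standard errors of 0.11 to 0.56 set the size of difference that could have been seen. This comparison also tests whether the mutants differ in their change from WT, so calls made in 1 mutant alone (Slc25a12 and Slc25a29 in mdx, Slc25a37 in DMD-Null) were not shown to be particular to it.

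Ratios of related carriers within a library do not depend on scaling between libraries. The 4 pairs with both members above the rule were each compared between genotypes with an exact two-sided permutation test of the mean log2 ratio of FPKM (4 against 4, smallest possible p 0.0286), adjusted over 12 tests. Slc25a5 was 2.87%, 3.97%, 4.21% and 3.52% of Slc25a4 in DMD-Null 1 to 4. It was 3.19%, 2.73%, 3.47% and 3.63% in mdx 1 to 4, and 1.46%, 1.68%, 1.39% and 1.60% in WT 1 to 4. The WT libraries, WT 1 and WT 3 included, lay in a narrow range under all mutant libraries. The log2 ratio differed by 1.24 in DMD-Null and by 1.08 in mdx against WT (exact p = 0.0286 each, adjusted p = 0.0686 each), which was the smallest p the test could give and did not pass after adjustment. Without WT 1 and WT 3 the differences were 1.14 and 0.98, where 4 against 2 libraries cannot give an exact p below 0.0667.

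Slc25a37 was 39.1% to 75.1% of Slc25a28 in DMD-Null, 49.1% to 65.8% in mdx and 7.55% to 30.7% in WT, a log2 difference of 1.99 in DMD-Null and 1.90 in mdx (exact p = 0.0286 each, adjusted p = 0.0686 each). WT 1 and WT 3 were far below WT 2 and WT 4, and without them the difference was 1.04 in DMD-Null and 0.95 in mdx. Slc25a24 was 23.1% to 134% of Slc25a25 in DMD-Null, 67.9% to 168% in mdx and 2.50% to 26.1% in WT. That log2 difference was 3.17 in DMD-Null, where DMD-Null 4 overlapped with WT 2 (exact p = 0.0571, adjusted p = 0.114), and 3.85 in mdx (exact p = 0.0286, adjusted p = 0.0686). It was 2.09 in DMD-Null and 2.76 in mdx without WT 1 and WT 3. The ratio of the pyrimidine nucleotide carriers Slc25a33 and Slc25a36 did not differ beyond the spread (log2 difference -0.18 in DMD-Null and -0.04 in mdx, exact p = 0.743 and 0.943), and turned to 0.60 and 0.73 without WT 1 and WT 3 (exact p = 0.0667 each). No ratio differed between DMD-Null and mdx (exact p from 0.343 to 0.686).

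**Figure D4:**
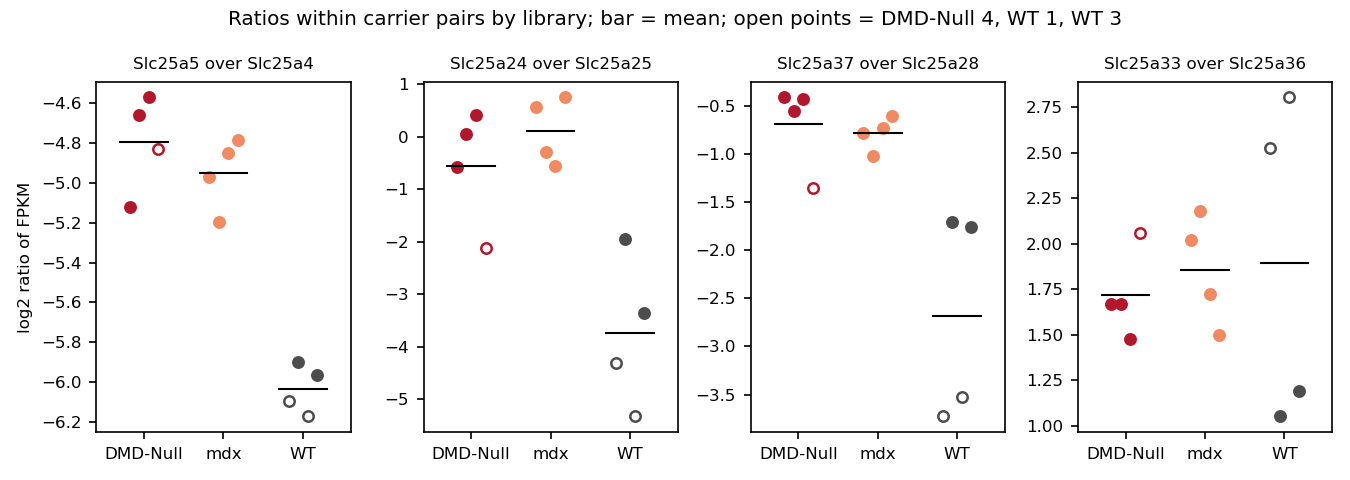
Log2 ratio of FPKM within 4 carrier pairs in each library, for DMD-Null, mdx and WT. Bars are means of 4 libraries and open points are DMD-Null 4, WT 1 and WT 3. Slc25a5 over Slc25a4 lies between -5.19 and -4.57 in the mutants and between -6.17 and -5.90 in WT.

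GC content moved with these changes. Across the 35 members, Spearman's correlation between the GC content of a gene and its log2 fold change was -0.66 in DMD-Null and -0.65 in mdx, over points that share the same libraries. Without WT 1 and WT 3 it was -0.10 and -0.16. The median GC content of the members that fell was 56.0% in each mutant, beside 48.1% for the 3 that rose in DMD-Null and 45.6% for the 2 that rose in mdx. Slc25a20, which fell, had 48.2% GC and changed by about as much without WT 1 and WT 3 as with them. With offsets corrected for GC content, Slc25a34, Slc25a22, Slc25a28, Slc25a47, Slc25a20, Slc25a23 and Slc25a42 were still called lower, and Slc25a5 and Slc25a24 higher, in both mutants.

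**Figure D5:**
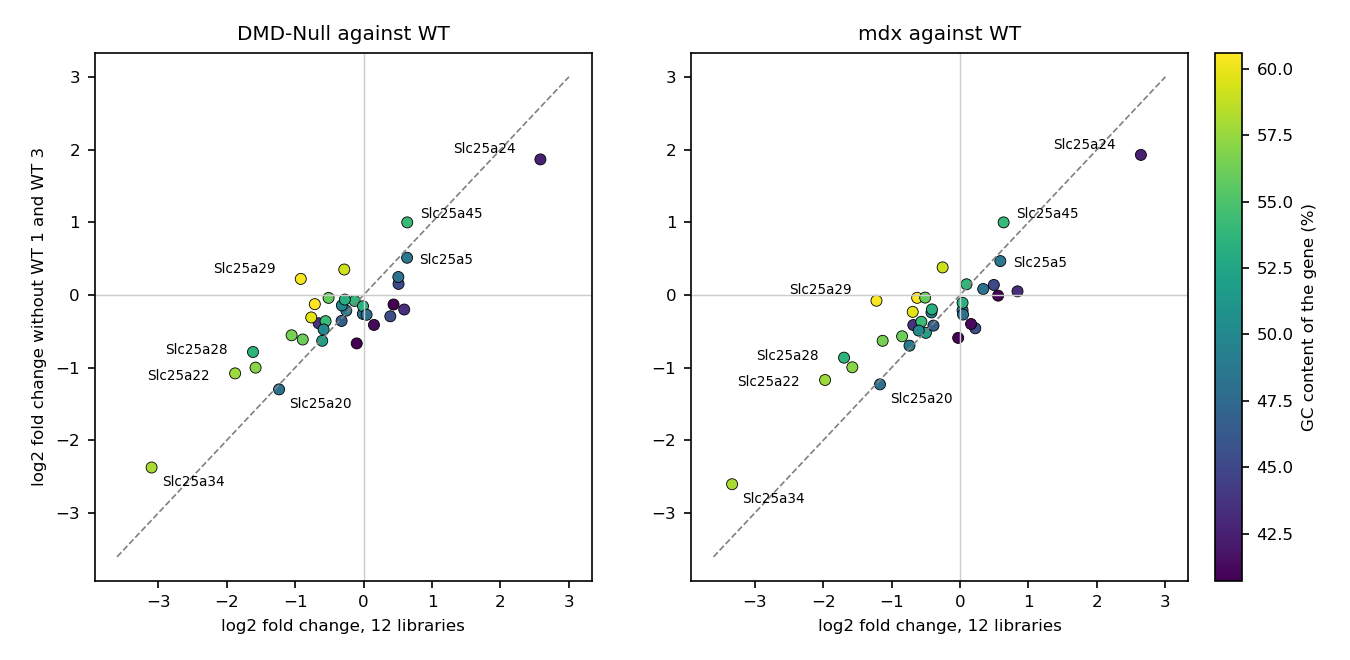
Log2 fold change of the members named in the text from all 12 libraries (horizontal axis) and without WT 1 and WT 3 (vertical axis), for DMD-Null against WT and mdx against WT, coloured by GC content; the dashed line marks equal values. Slc25a29 moves to 0.22 in DMD-Null and -0.08 in mdx, while Slc25a20 stays near the line.

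Promoter sequences are shown for 4 members whose fall and 2 whose rise passed in both mutants under every alternative that could test them, as a sample of both directions (chosen after their values were seen; Slc25a42 and Slc25a47 fell as steadily and are not shown). Among those that rose, Slc25a24 met the FPKM rule through the mutant libraries. RefSeq windows on GRCm38.p6 were matched by symbol for 26 of the 35 members (that of Slc25a47 lies 15083 bases from its deposited start), and the 250 bases before the start are given 5′ to 3′ on the strand of the gene, from the window whose start lay nearest to the deposited gene. Capitals mark the GC box (GGGCGG) and the CCAAT box (CCAAT), searched on both strands. The windows are chr4:141623835-141624084 (minus strand) for Slc25a34, chr7:141437875-141438124 (minus strand) for Slc25a22, chr19:43674882-43675131 (minus strand) for Slc25a28, chr9:108661886-108662135 (plus strand) for Slc25a20, chr3:109122899-109123148 (plus strand) for Slc25a24 and chrX:36795347-36795596 (plus strand) for Slc25a5.
Slc25a34: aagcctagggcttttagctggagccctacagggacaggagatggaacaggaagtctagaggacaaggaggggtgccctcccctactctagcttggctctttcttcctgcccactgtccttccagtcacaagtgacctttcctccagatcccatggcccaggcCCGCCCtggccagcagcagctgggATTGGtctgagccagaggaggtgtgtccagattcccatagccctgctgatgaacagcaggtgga
Slc25a22: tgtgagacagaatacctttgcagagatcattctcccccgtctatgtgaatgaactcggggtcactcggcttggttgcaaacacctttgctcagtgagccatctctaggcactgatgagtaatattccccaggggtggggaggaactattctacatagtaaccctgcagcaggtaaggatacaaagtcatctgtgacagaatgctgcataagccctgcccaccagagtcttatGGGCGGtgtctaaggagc
Slc25a28: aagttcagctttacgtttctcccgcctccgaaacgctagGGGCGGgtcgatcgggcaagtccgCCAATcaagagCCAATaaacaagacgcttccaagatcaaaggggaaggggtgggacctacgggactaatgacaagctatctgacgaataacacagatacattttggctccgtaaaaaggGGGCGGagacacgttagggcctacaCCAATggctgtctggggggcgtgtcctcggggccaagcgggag
Slc25a20: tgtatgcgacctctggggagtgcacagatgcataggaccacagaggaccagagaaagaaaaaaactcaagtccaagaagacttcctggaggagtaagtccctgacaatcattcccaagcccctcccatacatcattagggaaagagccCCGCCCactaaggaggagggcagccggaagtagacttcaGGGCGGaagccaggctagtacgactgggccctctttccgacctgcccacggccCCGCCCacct
Slc25a24: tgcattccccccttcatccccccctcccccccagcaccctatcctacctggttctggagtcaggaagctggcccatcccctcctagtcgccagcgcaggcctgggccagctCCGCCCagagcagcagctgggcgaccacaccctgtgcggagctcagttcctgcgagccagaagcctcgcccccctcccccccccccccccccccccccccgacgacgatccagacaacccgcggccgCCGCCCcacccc
Slc25a5: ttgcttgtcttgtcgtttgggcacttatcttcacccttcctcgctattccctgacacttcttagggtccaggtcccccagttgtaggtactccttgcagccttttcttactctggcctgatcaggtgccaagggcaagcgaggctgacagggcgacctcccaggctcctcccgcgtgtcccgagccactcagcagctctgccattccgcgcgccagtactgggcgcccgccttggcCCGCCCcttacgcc

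Each of these 6 windows held a GC box, and those of Slc25a34 and Slc25a28 held a CCAAT box as well. Over the 26 members with a window, 20 (76.9%) had a GC box, against 32.7% of 32851 RefSeq windows of the same length, and 14 (53.8%) had a CCAAT box, against 33.8%. The TATA box (TATAAA) was in none of the 26 windows and in 12.4% of all windows. The E-box (CACGTG) was in 3 (11.5%), against 6.02%. The element of estrogen-related receptors (TCAAGGTCA), the NRF1 core (GCGCATGC) and a direct repeat bound by PPAR receptors (AGGTCANAGGTCA) were in none, with 0.387%, 2.26% and 0.0335% of all windows holding them. RefSeq windows in general served as the background, with no matching for expression or GC content, so these shares do not single out the family. No match means only that these letters are not in the window.

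Other mitochondrial transport genes gave a mixed picture beside the carriers. Their counts stand beside 12.9% of all tested genes that rose and 15.6% that fell in DMD-Null, and 15.0% and 20.1% in mdx. Without WT 1 and WT 3, 9.84% of all tested genes were lower in DMD-Null and 10.9% in mdx. Of 9 tested genes of the import route for carriers, 1 fell in DMD-Null (Tomm40, the channel of the outer membrane, -0.89, edgeR adjusted p = 0.0397). In mdx 4 fell, among them Tomm40 (-0.94, edgeR adjusted p = 0.0296), and none passed in either mutant without WT 1 and WT 3. Of the 6 genes of the calcium uniporter, 2 rose in both mutants. Mcub, a subunit that lowers uptake and that reached the filter through the mutants (0.443 to 1.02 FPKM in WT), rose by 1.77 in DMD-Null and 1.57 in mdx (edgeR adjusted p = 0.000611 and 0.00110), and Micu2, a gatekeeper, by 0.70 and 0.62 (edgeR adjusted p = 0.00594 and 0.00959). Of the pyruvate carrier subunits, Mpc2 fell (-0.65 and -0.64, edgeR adjusted p = 0.00299 and 0.00310) and Mpc1 did not pass. Sfxn3, the only sideroflexin tested of 5, rose by 1.002 in DMD-Null and 1.106 in mdx (edgeR adjusted p = 0.000381 and 0.000176). Vdac1, Vdac2 and Vdac3, the outer membrane channels, did not pass, though without WT 1 and WT 3 2 of the 3 were called lower in DMD-Null and 1 in mdx.

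Of 10 other mitochondrial proteins, 4 fell in DMD-Null and 3 in mdx, Cox4i1, a subunit of cytochrome oxidase, among them (-1.21 and -1.22, edgeR adjusted p = 0.0118 and 0.00988). Against WT 2 and WT 4 alone Cox4i1 changed by -0.46 and -0.47 (edgeR adjusted p = 0.0248 and 0.0211), and the chaperone Hspd1, not called with all libraries, by -0.86 and -0.87 (edgeR adjusted p = 0.000456 and 0.000388). Of 13 genes of the mitochondrial genome, 2 fell in each mutant, and 10 did so without WT 1 and WT 3. Beside these lists, 12.9% of all tested genes rose and 15.6% fell in DMD-Null, and 15.0% rose and 20.1% fell in mdx. Without WT 1 and WT 3, 9.84% of all tested genes were lower in DMD-Null and 10.9% in mdx. Fast muscle markers, which mark the labelled tissue, were abundant in every library, and 4 of 7 fell in each mutant, none of them without WT 1 and WT 3. Without TMM scaling, their summed CPM was 89950 to 124600 in DMD-Null, 91240 to 118700 in mdx and 87350 to 201200 in WT. Of 6 slow fibre genes, 2 rose (Tnni1 and Atp2a2) and 1 fell (Myl3) in each mutant. Of 2 adipocyte genes tested of 5 listed, Cidec fell in mdx and none passed in DMD-Null; without WT 1 and WT 3 Cidec did not pass and Fabp4 was called lower in both. Lung markers summed to at most 0.124 CPM in DMD-Null, 12.2 to 15.3 in mdx and 0.0654 to 0.478 in WT, and all 4 listed (Sftpc, Scgb1a1, Sftpa1 and Sftpb) were at 0 in DMD-Null 1, DMD-Null 2 and DMD-Null 4. These genes reached the filter through the mdx libraries if at all, so no test of them is given. No part of these markers in a member's change was tested.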

How the data were processed

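Poly(A) RNA of the tibialis anterior was sequenced in 4 libraries each of DMD-Null, mdx and WT mice. The authors deposited 1 table of whole-number counts and FPKM per gene; the submitters' processing notes list StringTie 1.3.4, HISAT2 2.0, FastQC 0.10.1 and cutadapt 1.10. The sources used here do not state how the counts were derived or whether strand was used. The notes name GRCm39, yet 99.58% of the 30155 genes also in a GRCm38 annotation share a start or end with it, so positions were read as GRCm38. Libraries held 60693078 to 68054627 counts.

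Genes with FPKM of 1 or more in at least 4 libraries were kept (11376). Counts were fitted with edgeR 4.0.16 (R 4.3.3), TMM scaling and 1 quasi-likelihood model over 12 libraries; SE is the log2 fold change divided by the square root of F. Alternatives used limma 3.58.1 on log2(FPKM + 1) and log2(FPKM + 0.1), DESeq2 1.42.0, other scalings and filters, GC-corrected offsets and left-out libraries. The code was tested on simulated data. Library-by-library values are given for the 6 members of highest mean FPKM and, per comparison, the 4 largest falls and up to 4 largest rises past the threshold; Slc25a20 was added after its values were seen. Members and lists were chosen with earlier results of these data known. One member and 1 gene of a marker list are counted but not reported by name here.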

Additional observations from a re-analysis of the deposited data

Results flagged for a closer look

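In 6 of the 105 groups of 4 libraries (35 members in 3 genotypes), 1 library lay farther from the other 3 than Dixon's criterion allows; chance alone flags about 1 group in 20. DMD-Null 4 was high for Slc25a28, at 36.4 scaled CPM against 24.0 to 25.6 in the other DMD-Null libraries, and low for Slc25a36, at 17.8 against 23.4 to 23.8. DMD-Null 3 was low for Slc25a33, at 13.0 scaled CPM against 14.6 to 14.7. In mdx, mdx 4 was low for Slc25a4, at 2907 scaled CPM against 3117 to 3126, mdx 3 was high for Slc25a30, at 6.79 against 5.92 to 5.98, and mdx 1 was high for Slc25a34, at 4.97 against 3.77 to 3.88.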

How the results depend on the processing

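Members higher in DMD-Null than in WT numbered 1 with a mean FPKM of at least 5, and 5 with library totals alone or limma on log2(FPKM + 1) or log2(FPKM + 0.1), against 3 in the main analysis; those lower numbered 8 with library totals or either limma fit, against 13. In mdx, 1 was higher with a mean FPKM of at least 5, 6 with library totals and 9 with either limma fit, against 2, and 9 were lower with that mean and 8 with library totals or either limma fit, against 15. A mean FPKM of at least 5 left 16 members and 4880 genes to test, of which 13.5% were higher and 16.8% lower in DMD-Null and 14.6% and 20.3% in mdx. Library totals called 29.5% of all tested genes higher and 5.05% lower in DMD-Null, and 29.4% and 6.21% in mdx. For limma on log2(FPKM + 1) the shares were 43.6% and 4.97% in DMD-Null, and 44.4% and 5.91% in mdx. On log2(FPKM + 0.1) they were 42.9% and 4.81%, and 44.3% and 5.7%. Leaving out 1 library gave 2 to 6 higher and 11 to 18 lower members in DMD-Null (8.11% to 28.2% and 6.88% to 28.1% of all genes), and 2 to 5 higher and 12 to 19 lower in mdx (9.77% to 29.8% and 10.3% to 30.6%). Slc25a12 in mdx turned to 0.037 with library totals, 0.085 with limma on log2(FPKM + 1) and 0.086 on log2(FPKM + 0.1). In DMD-Null, where it did not pass, it turned to 0.105 with library totals and 0.15 with limma on log2(FPKM + 1). Slc25a32 in mdx turned to -0.36 with GC-corrected offsets, and Slc25a51 in mdx to -0.25 without WT 1, WT 3 and DMD-Null 4; the causes were not tested.

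Over all tested genes in DMD-Null, higher and lower calls were 3204 and 3200 without WT 2, 3360 and 574 with library totals, 4962 and 565 with limma on log2(FPKM + 1), and 771 and 627 with the libraries of 2 groups only. In mdx these were 3390 and 3484, 3350 and 707, 5049 and 672, and 1123 and 1145. Samples of the same replicate number did not deviate together (correlations from -0.587 to 0.217). The labels merely number the replicates, so whether they are paired is not known and no pairing was assumed. With a replicate block, 2 members were higher and 12 lower in each mutant, beside 9.09% and 7.34% of all genes in DMD-Null and 10.7% and 10.2% in mdx. Leaving out 1 library moved the log2 ratio of Slc25a24 over Slc25a25 between 2.64 and 3.77 in DMD-Null and 3.31 and 4.44 in mdx, and that of Slc25a37 over Slc25a28 between 1.64 and 2.32 in DMD-Null and 1.55 and 2.22 in mdx.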
